A study of Mus musculus with 8 samples.

Results

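The Rab genes of the mouse, which encode the small GTPases of vesicle traffic, were followed in enteroendocrine cells, the rare cells of the gut lining that release hormones. A gene was taken as a member when the symbol in the count files was Rab followed by a number, with pseudogenes and Rab-interacting proteins left out, and when at least 1 file listed it. This gave 59 genes of 20726 listed in any file, and 54 of these stood in both kinds of file that the series holds and could be compared. Cells had been sorted one by one for a fluorescent hormone reporter from intestinal organoids of C57BL/6 mice, and transcripts were counted per well by SORT-seq, a plate method with molecular identifiers. Organoids came from a Gcg-Venus line (proglucagon of L cells), a Gip-Cre line (the K cell hormone) and a Tac1-Cre line (the substance P precursor of enterochromaffin cells). A Cre label marks any cell that used the gene earlier, so it can stay in cells that no longer do. Each line was sampled without BMP4, after 24 h and after 4 days of BMP4, a ligand of the bone morphogenetic protein pathway, and no group carried another stated allele or agent. Wells of the 3 conditions shared 5 plates (2 Gcg, 1 Gip and 2 Tac1), and 3 further Tac1 plates held 24 h cells (1 plate) or 4 day cells (2 plates) alone.

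A Rab protein is a switch: loaded with GTP it sits on a membrane and recruits effectors, and after GTP hydrolysis a dissociation inhibitor takes it back into the cytosol. Guanine nucleotide exchange factors and GTPase-activating proteins drive the cycle, and each Rab marks its own step of traffic. Rab1 and Rab2 act between the endoplasmic reticulum and the Golgi, Rab5 on early endosomes, Rab11 in recycling, Rab7 on late endosomes, and the Rab3 and Rab27 proteins sit on secretory granules, where they help dock the granules and release their contents.

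Of 3072 wells, 1006 held at least 2000 transcripts and were kept, and their counts were summed per plate and condition. The sums used for tests held 16 to 135 cells, and the 9 cells of Tac1 plate 2 at 24 h were left out. The CPM of a gene is its count in a sum per 1000000 transcripts counted there, and the plate is the replicate. Whether each plate had its own culture is not stated, so a p-value here covers differences among plates that could be technical. Each condition kept to its own block of plate columns, so a treatment and its position cannot be told apart. The defining markers of the sorted cell type were present: the summed level of 11 enteroendocrine markers, all of which were listed, was 5908 to 13286 CPM on the Gcg and Gip plates and 37230 to 84852 CPM on the Tac1 plates. The summed level of 11 enterocyte markers was 6584 to 32550 CPM on the Gcg and Gip plates, against 739 to 4321 CPM on the Tac1 plates. On the Gcg plates it lay above the enteroendocrine sum under every condition. In 608 of the 1006 kept cells the enteroendocrine count was above that of enterocyte, goblet and Paneth markers together.

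Together the members made up 2340 to 4163 CPM of a sum. In untreated cells 12 of the 54 had a median of at least 100 CPM over the 5 plates, 31 lay between 10 and 100 CPM and 11 lay below 10 CPM. These counts are of transcripts primed at the poly(A) tail, 1 per molecule, so genes were set side by side without division by length. The highest were Rab1 (median 339 CPM, 230 to 364 over the 5 plates) and Rab2a (median 318 CPM, 249 to 353), both of the early secretory pathway. They were followed by Rab14, a Rab of the Golgi and endosomes (median 264 CPM, 243 to 271), Rab7 of late endosomes (median 252 CPM, 0 to 369) and Rab6a of the Golgi (median 230 CPM, 163 to 260). The ranges of neighbours in this order overlap, so their order is not settled. Among the 8 granule members Rab3d was the highest, with a median of 221 CPM and 115 to 321 CPM over the plates, and Rab26 was the lowest, at 0 to 6.51 CPM. Rab7 and Rab3c differed most between plates, with 0 to 369 CPM and 9.17 to 891 CPM in untreated cells.

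Rab3c, one of the Rab3 GTPases of regulated exocytosis, fell after 4 days of BMP4, and it was the member for which the test across plates passed. On Tac1 plate 1 Rab3c stood at 891 CPM without BMP4, 817 CPM at 24 h and 236 CPM at 4 days. On Tac1 plate 2 it stood at 238 CPM at 4 days, against 767 CPM without BMP4. On the plates of the other lines the gene was near the floor, with 5.59, 0 and 4.57 CPM at 4 days on Gcg plate 1, Gcg plate 2 and the Gip plate, against 11.7, 19.3 and 9.17 CPM without BMP4. The 4 day value was below the untreated value of the same plate on 5 of 5 plates. Over the plates the log2 change was -1.49 ± 0.29 (SE, n = 5 plates; edgeR's quasi-likelihood test with plate as a block, Benjamini-Hochberg adjusted p = 0.0093). That test reports no SE, so each SE given with an edgeR change is the absolute log2 change divided by the square root of the F statistic. On the Gcg and Gip plates this rests on few transcripts: 7, 0 and 4 at 4 days, against 10, 13 and 5 without BMP4. The 3 Tac1 plates that stayed outside this fit gave 153 and 74 CPM at 4 days and 498 CPM at 24 h. Over the Tac1 line the 4 day values, 74 to 238 CPM on 4 plates, did not overlap the untreated values of 767 and 891 CPM. The call ended without Tac1 plate 1 (log2 change -1.29, adjusted p = 0.11), and without cells in which Kcnq1ot1 held at least 2% of transcripts (log2 change -1.62, adjusted p = 0.099), a setting that leaves 1 of the 2 Tac1 sums at 4 days.

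**Figure D1:**
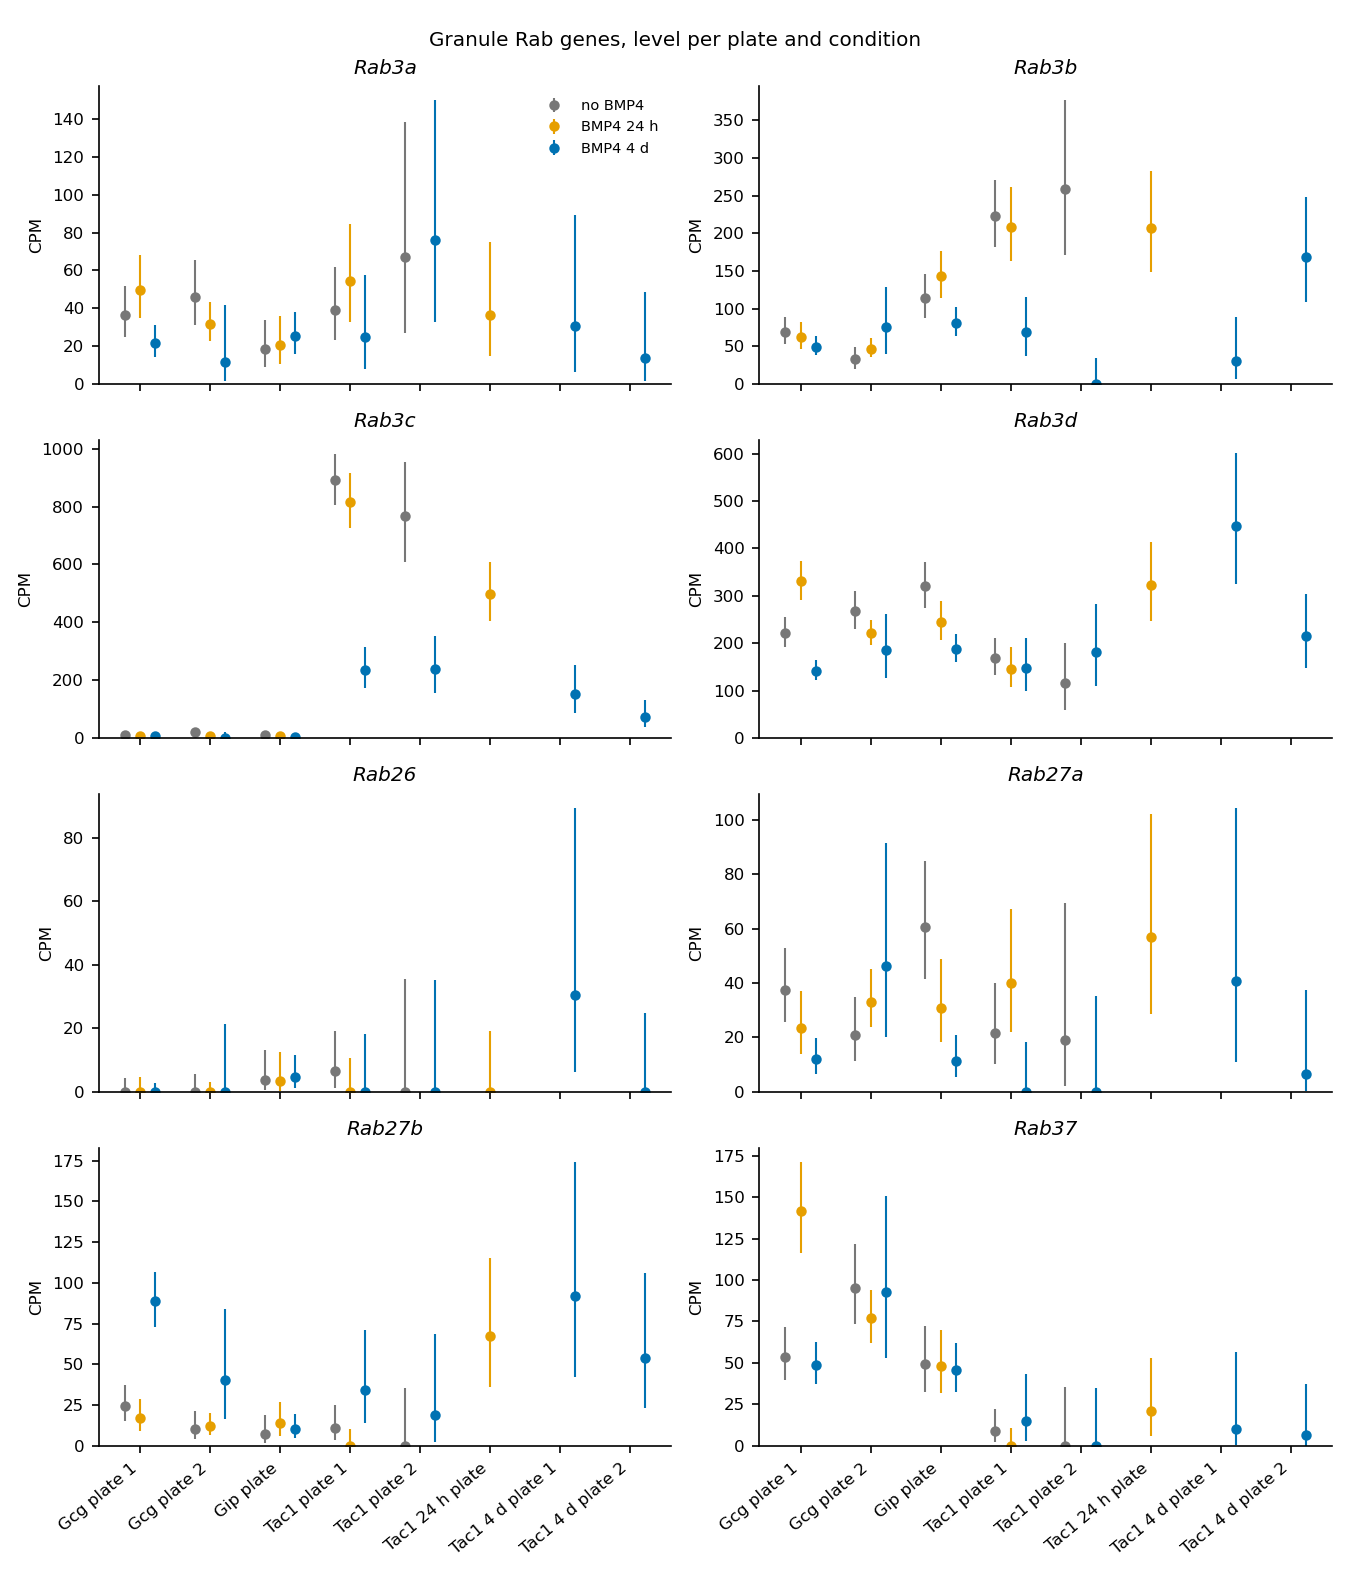
Level of the 8 granule Rab genes in CPM (linear axis from 0, own scale per panel) for each plate, with untreated, 24 h and 4 day cells in grey, orange and blue. Points are sums over the kept cells and bars are exact Poisson 95% intervals, which cover counting error alone; Rab3c stands at 74 to 238 CPM in the Tac1 cells after 4 days and at 767 and 891 CPM in untreated Tac1 cells.

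Of all genes tested in this comparison 3.33% were called (277 of 8308), and of the 39 members tested 0 were higher and 1 was lower. The members' share is thus near that of all genes. Of the 39, 15 had a log2 change above 0 and 24 below, with a median of -0.09, against a median of -0.0041 over all genes. The summed CPM of the 54 members, Rab3c included, was lower at 4 days on each of the 5 plates. At 4 days it was 3845, 3676, 3166, 2920 and 2340 CPM on Gcg plates 1 and 2, the Gip plate and Tac1 plates 1 and 2. Without BMP4 it was 4013, 4145, 3939, 4112 and 3981 CPM on the same plates. These sums are plain CPM, while the log2 changes are from the fit. DESeq2 called 2 members, the other being Rab27b. The other 20 members did not enter the fits, 5 because one kind of file does not list them and 15 through the filter on low counts.

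Other measures moved on the same plates. Kcnq1ot1, a nuclear antisense RNA taken here as a sign of RNA quality, stood at 62288 CPM at 4 days and 8419 CPM without BMP4 on Tac1 plate 1, and at 99651 CPM and 17834 CPM on Tac1 plate 2. The 11 enteroendocrine markers summed to 39978 CPM at 4 days and 83890 CPM without BMP4 on Tac1 plate 1, and to 45478 CPM and 84852 CPM on Tac1 plate 2. Kcnq1ot1 was higher, and the marker sum lower, at 4 days on each of the 5 plates. The part of either in the change of Rab3c was not tested. On Tac1 4 d plate 2, which has no untreated cells, Kcnq1ot1 was 17788 CPM and the marker sum 45645 CPM.

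**Figure D2:**
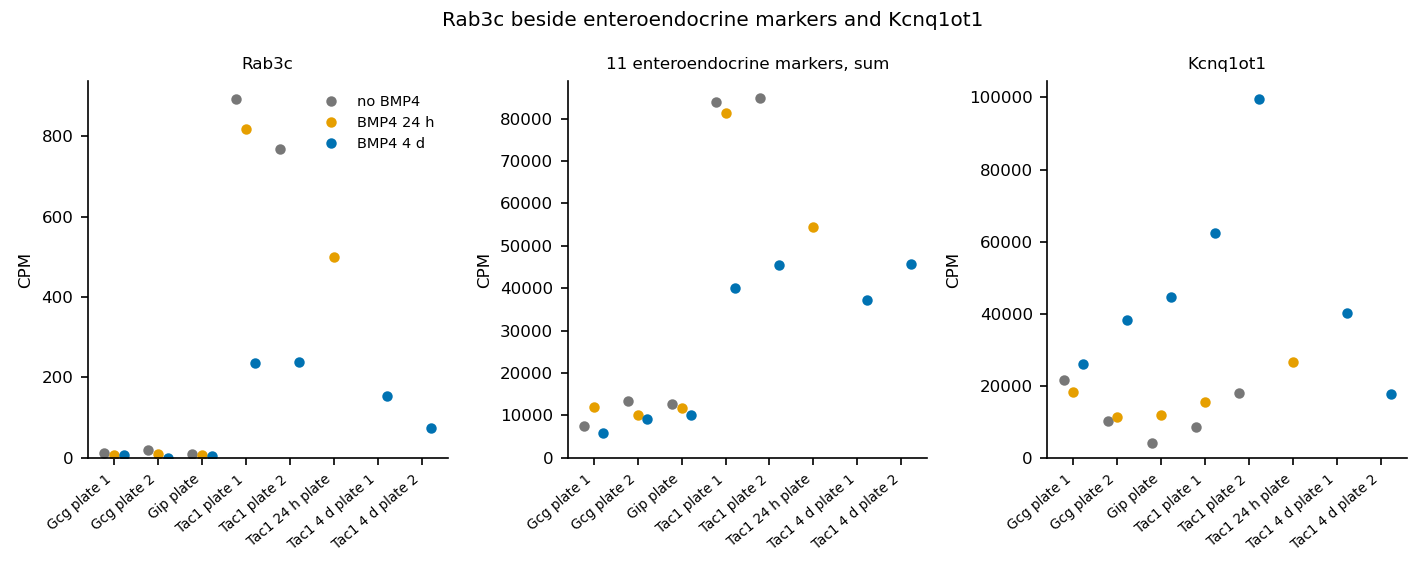
Rab3c, the sum of 11 enteroendocrine markers and Kcnq1ot1 in CPM (linear axes from 0) per plate, with untreated, 24 h and 4 day cells in grey, orange and blue. On all 4 Tac1 plates with 4 day cells Rab3c and the marker sum lie below both untreated Tac1 values, while Kcnq1ot1 on Tac1 4 d plate 2, at 17788 CPM, lies near untreated Tac1 plate 2, at 17834 CPM.

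The fall of Rab3c was also described by how many cells held the transcript, a share that follows the mean level and so is not separate support. With each cell thinned to 2000 transcripts, 24.4% of 41 cells at 4 days held Rab3c on Tac1 plate 1 (Wilson 95% interval 13.8 to 39.3%), against 72.1% of 68 untreated cells (60.4 to 81.3%). On Tac1 plate 2 the shares were 26.7% of 15 cells at 4 days (10.9 to 52%) and 68.8% of 16 untreated cells (44.4 to 85.8%). On the other Tac1 plates 45.6% of 46 cells held it at 24 h, and 27.6% of 29 and 14% of 43 at 4 days. Thinning left out at most 2 cells of a sum. Without thinning the shares on Tac1 plate 1 were 51.2% at 4 days and 83.8% without BMP4, and the cells with a transcript held 2.29 and 7.19 of them on average. These unthinned values also carry a difference in depth, with medians of 3983 transcripts per cell at 4 days and 5676 without BMP4. On the Gcg and Gip plates 0 to 4.00% of thinned cells held Rab3c, and the share that free RNA gives was not measured. Intervals cover counting error alone.

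**Figure D3:**
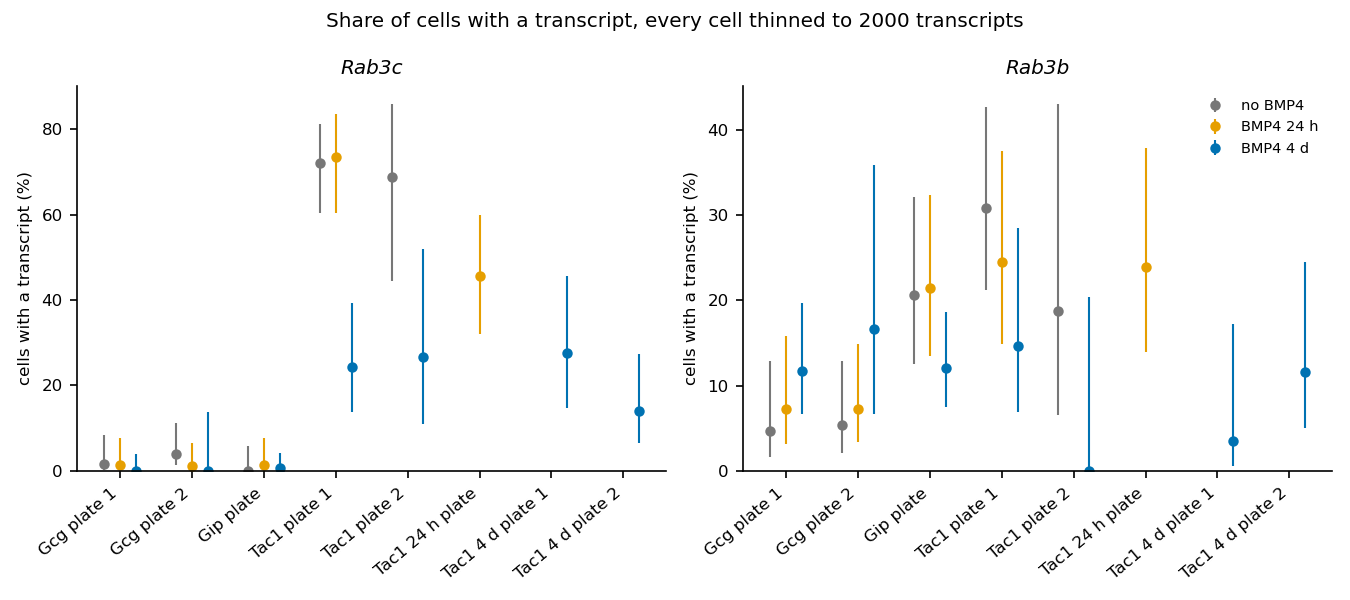
Share of cells with at least 1 transcript of Rab3c (left) or Rab3b (right), in percent on a linear axis from 0, per plate and condition after thinning every cell to 2000 transcripts. Bars are Wilson 95% intervals. For Rab3c the Tac1 shares at 4 days lie between 14% and 27.6%, below the untreated shares of 68.8% and 72.1%.

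Cells can also be grouped by their leading hormone, the one of 7 hormones with at least 0.5% of a cell's transcripts and at least 2 times the next. On Tac1 plate 1 the Sst-led cells gave 306 CPM of Rab3c at 4 days (19 cells), against 742 CPM without BMP4 (17 cells). In the cells with no leading hormone the values were 211 CPM at 4 days (21 cells) and 949 CPM without BMP4 (45 cells). Rab3c was thus lower at 4 days in both groups of cells of that plate. These groups were looked at after the change was known, and they are ranges of a count, not cell types.

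The promoter of Rab3c is shown because the gene carries both the change with BMP4 and the lowest log2 value between lines, and that of Rab3b because it was the other Rab3 gene lower in the untreated Gcg line. Rab3c lies on chromosome 13, minus strand, and the window of RefSeq on GRCm38.p6 is chr13:110280157-110280456. The gene's RefSeq span runs from 110054187 to 110280996, so this window lies inside it and not at its outer 5' end. Rab3b lies on chromosome 4, plus strand, with the window chr4:108878820-108879119. Capitals mark matches, on either strand, to CAGCTG and CAGATG, 2 E-box forms of helix-loop-helix factors, and to GGCGCC, a site of BMP-activated Smads. The motifs were chosen after the values were seen.
Rab3c: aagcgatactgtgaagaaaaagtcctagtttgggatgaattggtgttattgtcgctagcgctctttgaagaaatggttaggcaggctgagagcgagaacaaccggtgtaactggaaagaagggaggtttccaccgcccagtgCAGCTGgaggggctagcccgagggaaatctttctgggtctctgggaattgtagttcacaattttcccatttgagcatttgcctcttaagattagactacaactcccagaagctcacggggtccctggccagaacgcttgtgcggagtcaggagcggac
Rab3b: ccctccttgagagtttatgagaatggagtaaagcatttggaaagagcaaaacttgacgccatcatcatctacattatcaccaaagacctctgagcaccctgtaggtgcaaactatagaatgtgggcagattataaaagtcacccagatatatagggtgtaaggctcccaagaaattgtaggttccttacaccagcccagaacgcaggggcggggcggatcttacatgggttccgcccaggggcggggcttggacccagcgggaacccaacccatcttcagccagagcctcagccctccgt
Rab3c held 1 match to CAGCTG and no match to the others, and Rab3b held no match to the 3 motifs. CAGCTG stood in 16.3% of 32851 promoters of this length and in 14 of the 60 windows (23.3%) of the 48 members that matched the table. CAGATG stood in 17.2% of all and 13.3% of the members' windows, and GGCGCC in 11.9% and 8.3%. The 3 motifs do not overlap in sequence, and a match is a string of letters, not a bound site.

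Rab27b and Rab27a, close relatives on secretory granules, had changes of opposite sign at 4 days, and neither passed. Rab27b stood at 88.7, 40.7, 10.3, 34.5 and 19 CPM at 4 days on Gcg plates 1 and 2, the Gip plate and Tac1 plates 1 and 2, against 24.6, 10.4, 7.34, 10.8 and 0 CPM without BMP4. The 4 day value was above the untreated one on 5 of 5 plates, though only Gcg plate 1, with 111 and 21 transcripts, held more than 9 in either condition. The log2 change was 1.77 ± 0.51 (SE, n = 5 plates; edgeR adjusted p = 0.076), and it passed with DESeq2 (adjusted p = 0.036), without a filter on low counts (0.0017) and with cells from 1000 transcripts (0.049). On the other Tac1 plates Rab27b was 67.5 CPM at 24 h, and 91.7 and 53.8 CPM at 4 days.

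The higher count of Gcg plate 1 lay in cells with no leading hormone, where Rab27b stood at 130 CPM at 4 days (51 cells) and 31 CPM without BMP4 (35 cells). In the Nts-led cells of that plate it was 12.7 CPM at 4 days (41 cells). Goblet cell markers, 7 genes, summed to 24456 CPM at 4 days and 12710 CPM without BMP4 on Gcg plate 1, and to 15826 and 2703 CPM on Gcg plate 2. On the Gip plate the sum was 4399 CPM at 4 days and 2768 CPM without BMP4, on Tac1 plate 1 it was 2152 and 1989 CPM, and on Tac1 plate 2 it was lower at 4 days, with 2103 and 2820 CPM. Their part in the Rab27b values was not tested across plates: in sums without cells rich in enterocyte, goblet and Paneth markers, the gene failed the filter on low counts.

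Rab27a stood at 12, 46.5, 11.4, 0 and 0 CPM at 4 days on Gcg plates 1 and 2, the Gip plate and Tac1 plates 1 and 2, against 37.5, 20.8, 60.5, 21.7 and 19.2 CPM without BMP4. It was lower at 4 days on 4 of 5 plates and higher on Gcg plate 2, with a log2 change of -1.24 ± 0.54 (SE, n = 5; edgeR adjusted p = 0.29). On the Tac1 plates of the fit it had 0 transcripts at 4 days against 12 without BMP4. With a floor of 3 counts over both sums in place of 0, the pooled level was 2.18-fold lower. That figure leaves out the counting error of the 12 transcripts, so it is not a lower bound. The 2 further Tac1 plates had 40.8 and 6.73 CPM at 4 days, so it does not hold for all Tac1 plates.

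The remaining granule members did not pass either. Rab3b stood at 49.5, 75.5, 81.1, 68.9 and 0 CPM at 4 days on Gcg plates 1 and 2, the Gip plate and Tac1 plates 1 and 2, against 69.1, 32.7, 114, 223 and 259 CPM without BMP4, with a log2 change of -0.67 ± 0.42 (adjusted p = 0.51). On the further Tac1 plates Rab3b was 30.6 and 168 CPM at 4 days and 208 CPM at 24 h, and these 4 day values too lay below both untreated Tac1 values. Rab3d, a Rab3 also known from exocrine granules, was 142, 186 and 187 CPM at 4 days on the Gcg and Gip plates, against 221, 268 and 321 CPM without BMP4. On the Tac1 plates of the fit Rab3d was 148 and 181 CPM at 4 days, against 169 and 115 CPM without BMP4, so the plates did not share a direction. Rab3a, known as the main Rab of synaptic vesicles, was 11.6 to 76.1 CPM at 4 days and 18.4 to 67.2 CPM without BMP4, and the ranges overlap. Rab37, a granule Rab known from mast cells and pancreatic beta cells, was 0 to 92.9 CPM at 4 days and 0 to 95.1 CPM without BMP4, and it differed by plate more than by treatment. Rab26 had too few transcripts to test.

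**Figure D4:**
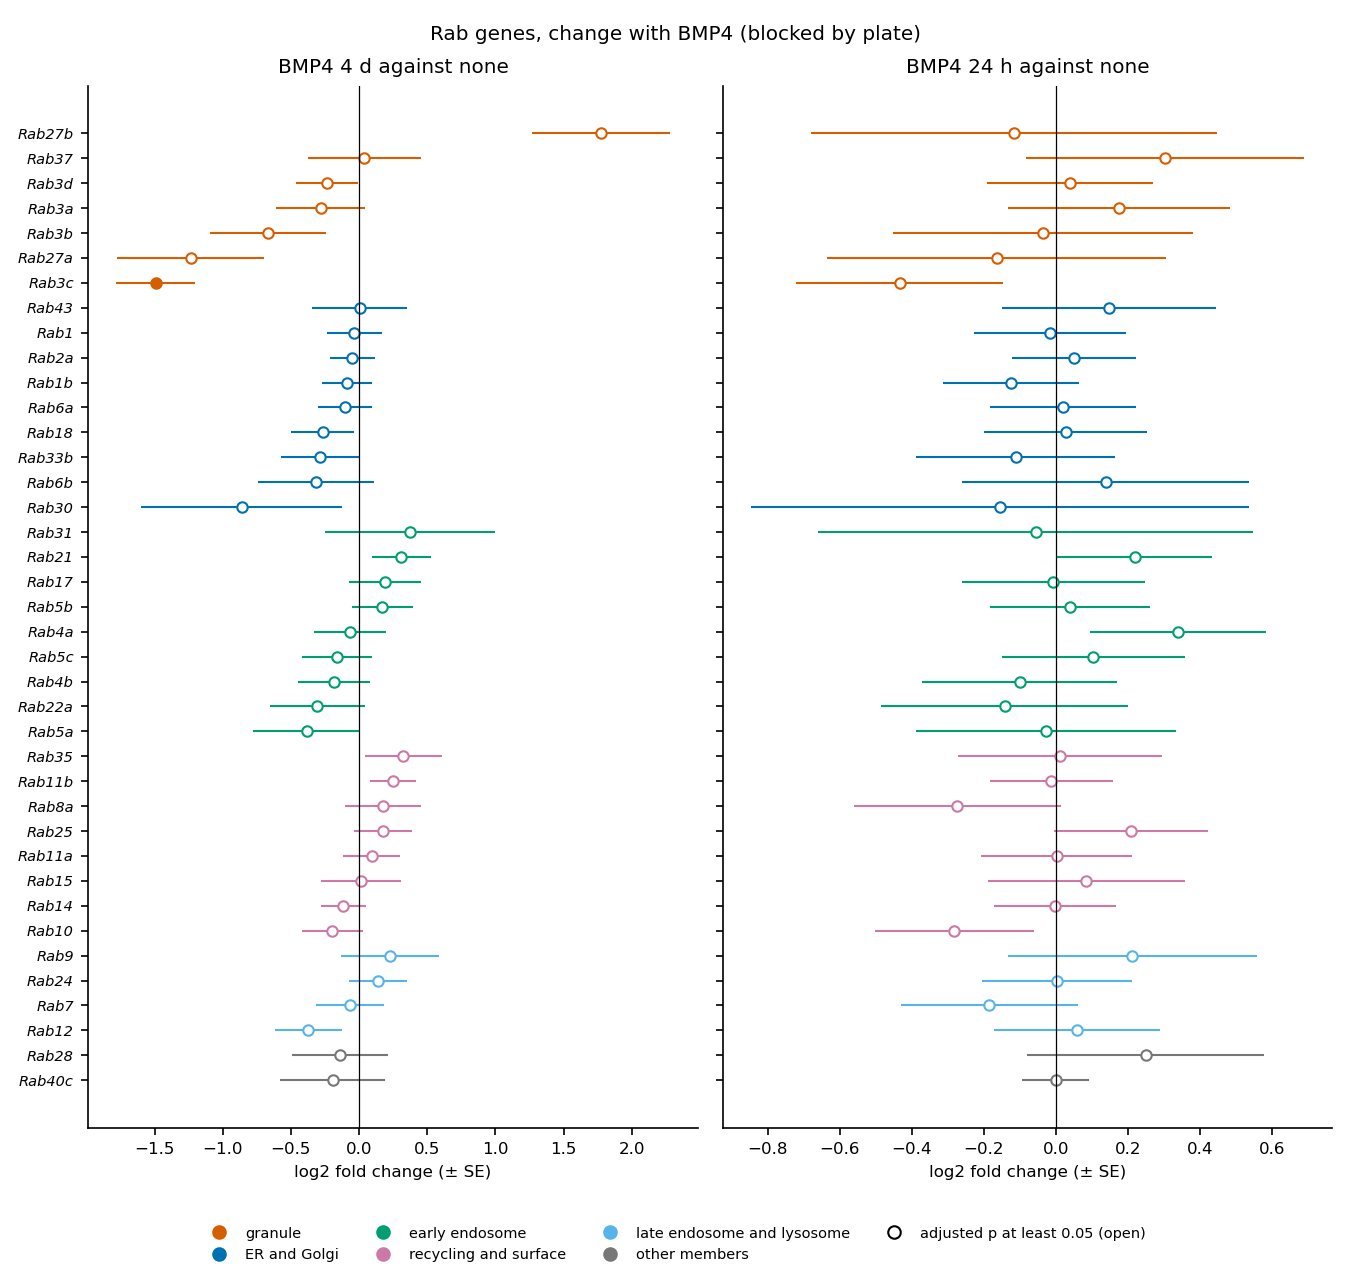
Log2 change of the 39 tested Rab genes with BMP4, 4 days against none (left) and 24 h against none (right). Bars are the SE derived from the F statistic of the blocked edgeR fit, which is unreliable for changes near 0, and the 2 axes have different scales. Colours give the role of the member and filled points passed at an adjusted p under 0.05. Rab3c at 4 days, at -1.49, is the filled point, and Rab27b, at 1.77, lies farthest on the other side.

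Outside the granule group no member passed at 4 days. Of 9 tested members of the endoplasmic reticulum and Golgi 1 had a change above 0 and 8 below, with a median of -0.10. Over all genes 4118 were above 0 and 4190 below. The lines did not share this direction: 7 of the 9 were above 0 and 2 below within the Gcg line (median 0.08). Within the Tac1 line 2 were above and 7 below (median -0.24). The 9 early endosome members had a median of -0.07, the 8 recycling members 0.13, and the 4 late endosome and lysosome members 0.03. The smallest p among them was that of Rab12, a Rab of recycling endosomes and lysosomes, with a log2 change of -0.37 ± 0.25 (edgeR adjusted p = 0.53). Rab12 stood at 24, 17.4, 46.9, 29.5 and 19 CPM at 4 days on Gcg plates 1 and 2, the Gip plate and Tac1 plates 1 and 2, against 32.8, 28.2, 55, 47.7 and 48 CPM without BMP4. The value was lower at 4 days on 5 of 5 plates, as was the summed CPM of all members. Misses of the threshold do not show that these genes kept their level.

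At 24 h of BMP4 none of the 39 members passed, with 0.0963% of all genes called (8 of 8308). In edgeR 0 members were under 0.05 before adjustment, and in DESeq2 0 passed. The members of smallest p were Rab3c (-0.43 ± 0.29), Rab4a (0.34 ± 0.25), Rab10 (-0.28 ± 0.22), Rab21 (0.22 ± 0.22) and Rab8a (-0.27 ± 0.29), all as log2 changes with SE over 4 plates and each with an adjusted p of 1.0. For Rab3c the level on Tac1 plate 1, the plate with most of its transcripts, was 817 CPM at 24 h against 891 CPM without BMP4, and the counting intervals of the plot overlap.

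Between the treated conditions, 4 days against 24 h, 0.397% of all genes passed (33 of 8308) and no member did, while 2 were under 0.05 before adjustment and 0 passed in DESeq2. These were Rab27b (1.89 ± 0.53, adjusted p = 0.15) and Rab3c (-1.06 ± 0.33, adjusted p = 0.21). With the 3 Tac1 plates of 1 condition added and no block, Rab3c passed at -1.47 (adjusted p = 0.038).

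Within single lines no member passed at 4 days against none. On the Gcg plates 0.277% of all genes were called (23 of 8308), and 3 members were under 0.05 before adjustment, with 0 in DESeq2. The members of smallest p there were Rab27b (log2 change 2.04 ± 0.52, edgeR adjusted p = 0.29), Rab6b, a Golgi Rab known from neurons (-1.37 ± 0.51, adjusted p = 0.64), Rab3c, Rab3a and Rab28. On the Tac1 plates 2.01% were called (167 of 8308), and 5 members were under 0.05 before adjustment, with 1 in DESeq2, Rab3c. In edgeR Rab3c was at -1.56 ± 0.36 (adjusted p = 0.073; 0.00033 without Gcg plate 1 and 0.019 without Gcg plate 2, which share the fit) and Rab22a, an early endosome Rab, at -1.74 ± 0.54 (adjusted p = 0.17). Rab3b was at -2.38 ± 0.72 (adjusted p = 0.16, and 0.00051 without Gcg plate 1), a fit with 1 sum at 0.

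Rab22a, which passed in 0 of 16 alternatives within the Tac1 line, rests on few transcripts. It stood at 29.5 and 19 CPM at 4 days on Tac1 plates 1 and 2 (6 and 2 transcripts), against 93.3 and 115 CPM without BMP4 (43 and 12 transcripts). The further Tac1 plates had 0 and 13.5 CPM at 4 days, and 93.4 CPM at 24 h. The 4 day values of all 4 Tac1 plates lay below both untreated values. On the Gcg plates Rab22a was 57.5 and 40.7 CPM at 4 days and 43.3 and 31.2 CPM without BMP4, higher at 4 days on both.

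Whether the 4 day change differed between the lines was tested by itself, Gcg minus Tac1. No gene of 8308 passed in edgeR (0%), with 753 at an unadjusted p under 0.05 and 22 called by DESeq2, and 3 members were under 0.05 before adjustment, with 0 in DESeq2. The 3 were Rab22a (2.33 ± 0.69), Rab6b (-2.39 ± 0.72) and Rab3b (2.71 ± 0.95), with adjusted p of 0.41, 0.42 and 0.49. Rab6b was 9.59 and 11.6 CPM at 4 days on the Gcg plates, against 28.1 and 28.2 CPM without BMP4, and 59.1 and 66.6 CPM at 4 days on the Tac1 plates of the fit, against 26 and 57.6 CPM without BMP4. Outside the fit, Tac1 4 d plate 1 was at 10.2 CPM, near the Gcg values at 4 days, while Tac1 4 d plate 2 lay above both Tac1 values of the fit. A difference of Rab3c change between the lines was not among these, and its change was of like size in the Gcg line (-1.39 ± 0.61) and the Tac1 line (-1.56 ± 0.36), though the Gcg value rests on 7 transcripts at 4 days and 23 without BMP4.

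The reporter lines were compared in untreated cells and after 4 days of BMP4. All files of the Tac1 line are of one kind and all files of the Gcg and Gip lines of another, so line and kind of file (its gene annotation and counting) cannot be told apart in the following. Cell make-up differed as well. Untreated, the enterocyte markers summed to 27876 and 21588 CPM on Gcg plates 1 and 2, against 1570 and 739 CPM on Tac1 plates 1 and 2. The enteroendocrine markers summed to 7385 and 13286 CPM, against 83890 and 84852 CPM. The part of make-up in the line differences was not tested, beyond fits without cells rich in enterocyte, goblet and Paneth markers. In untreated cells 16.4% of all genes differed between the Gcg and Tac1 lines (1508 of 9168), and of 42 members tested 5 were higher and 3 lower in the Gcg line. That share is close to that of all genes. DESeq2 called 5 of these 8: Rab7, Rab37, Rab17, Rab3c and Rab3b.

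Rab3c was the farthest below 0: 11.7 and 19.3 CPM on the Gcg plates, against 891 and 767 CPM on the Tac1 plates (log2 change -5.76 ± 0.44; edgeR adjusted p = 3.7e-10, n = 2 plates each). The groups do not overlap, which adds no support for a gene picked by this test. The Gip plate, at 9.17 CPM, lay with the Gcg plates. Rab3b was 69.1 and 32.7 CPM on the Gcg plates, against 223 and 259 CPM on the Tac1 plates (-2.18 ± 0.38; adjusted p = 1.4e-04), and 114 CPM on the Gip plate. Without cells rich in enterocyte, goblet and Paneth markers, Rab3b was at -0.80 (adjusted p = 0.14). Rab22a was 43.3 and 31.2 CPM on the Gcg plates, against 93.3 and 115 CPM on the Tac1 plates (-1.42 ± 0.43; adjusted p = 0.022), and this call ended with DESeq2 (0.22) and without Gcg plate 1 (0.052), Gcg plate 2 (0.22) or Tac1 plate 1 (0.087).

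Rab37 was the granule Rab that was higher in the Gcg line: 53.9 and 95.1 CPM on the Gcg plates, against 8.67 and 0 CPM on the Tac1 plates (3.33 ± 0.68; edgeR adjusted p = 7.5e-04). With 110 transcripts on the Gcg plates and 4 on the Tac1 plates, the ratio of pooled levels was 10.2 (exact 95% interval 3.87 to 38 from counting error). The Gip plate had 49.5 CPM. The Tac1 plates stayed at 0 to 20.8 CPM under every condition, below the 45.7 to 142 CPM of the Gcg and Gip plates.

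Of the endosomal members, Rab17, known from polarised epithelia, was 89 and 90.7 CPM on the Gcg plates, against 19.5 and 0 CPM on the Tac1 plates (2.51 ± 0.57; adjusted p = 0.0023). Rab4a, a Rab of fast recycling, was 76.1 and 138 CPM on the Gcg plates, against 41.2 and 0 CPM on the Tac1 plates (1.74 ± 0.53; adjusted p = 0.024). Rab15, a Rab of early and recycling endosomes, was 69.1 and 110 CPM on the Gcg plates, against 39 and 0 CPM on the Tac1 plates (1.56 ± 0.54; adjusted p = 0.046). For these genes, picked by this test, the 2 lines do not overlap, which adds no support. Tac1 plate 2, with 104241 transcripts from 16 cells, was at 0 for each of them, and without it the fits gave 2.12, 1.28 and 1.10. Without Tac1 plate 1 the other untreated Tac1 plate was at 0, and the fitted values of 8.60, 8.83 and 8.58 give no size, nor do those of Rab37 (8.31) and Rab7 (10.1). The call of Rab17 held in 15 of 15 alternatives. That of Rab4a held in 10 of 15 and that of Rab15 in 8 of 15, and both ended with DESeq2 (adjusted p = 0.16 and 0.26), without Tac1 plate 2 (0.058 and 0.105), without Gcg plate 2 (0.19 and 0.24) and without the Gip plate, which shares the fit (0.054 and 0.078).

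Rab7, the late endosome Rab, was 252 and 256 CPM on the Gcg plates and 369 CPM on the Gip plate, against 4.34 and 0 CPM on the Tac1 plates (6.05 ± 0.63; edgeR adjusted p = 5.5e-08). With 387 and 2 transcripts the ratio of pooled levels was 71.7 (exact 95% interval 19.7 to 594). The gene was at 0 to 9.51 CPM in every sum of the 5 Tac1 plates, although Rab7 is used by nearly every cell. The name Rab7l1 stands in the Tac1 files for a gene that the Gcg and Gip files call Rab29, so the annotations of the 2 kinds of file differ in at least 1 Rab gene. Whether the Rab7 values come from the cells or the counting cannot be told apart.

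**Figure D5:**
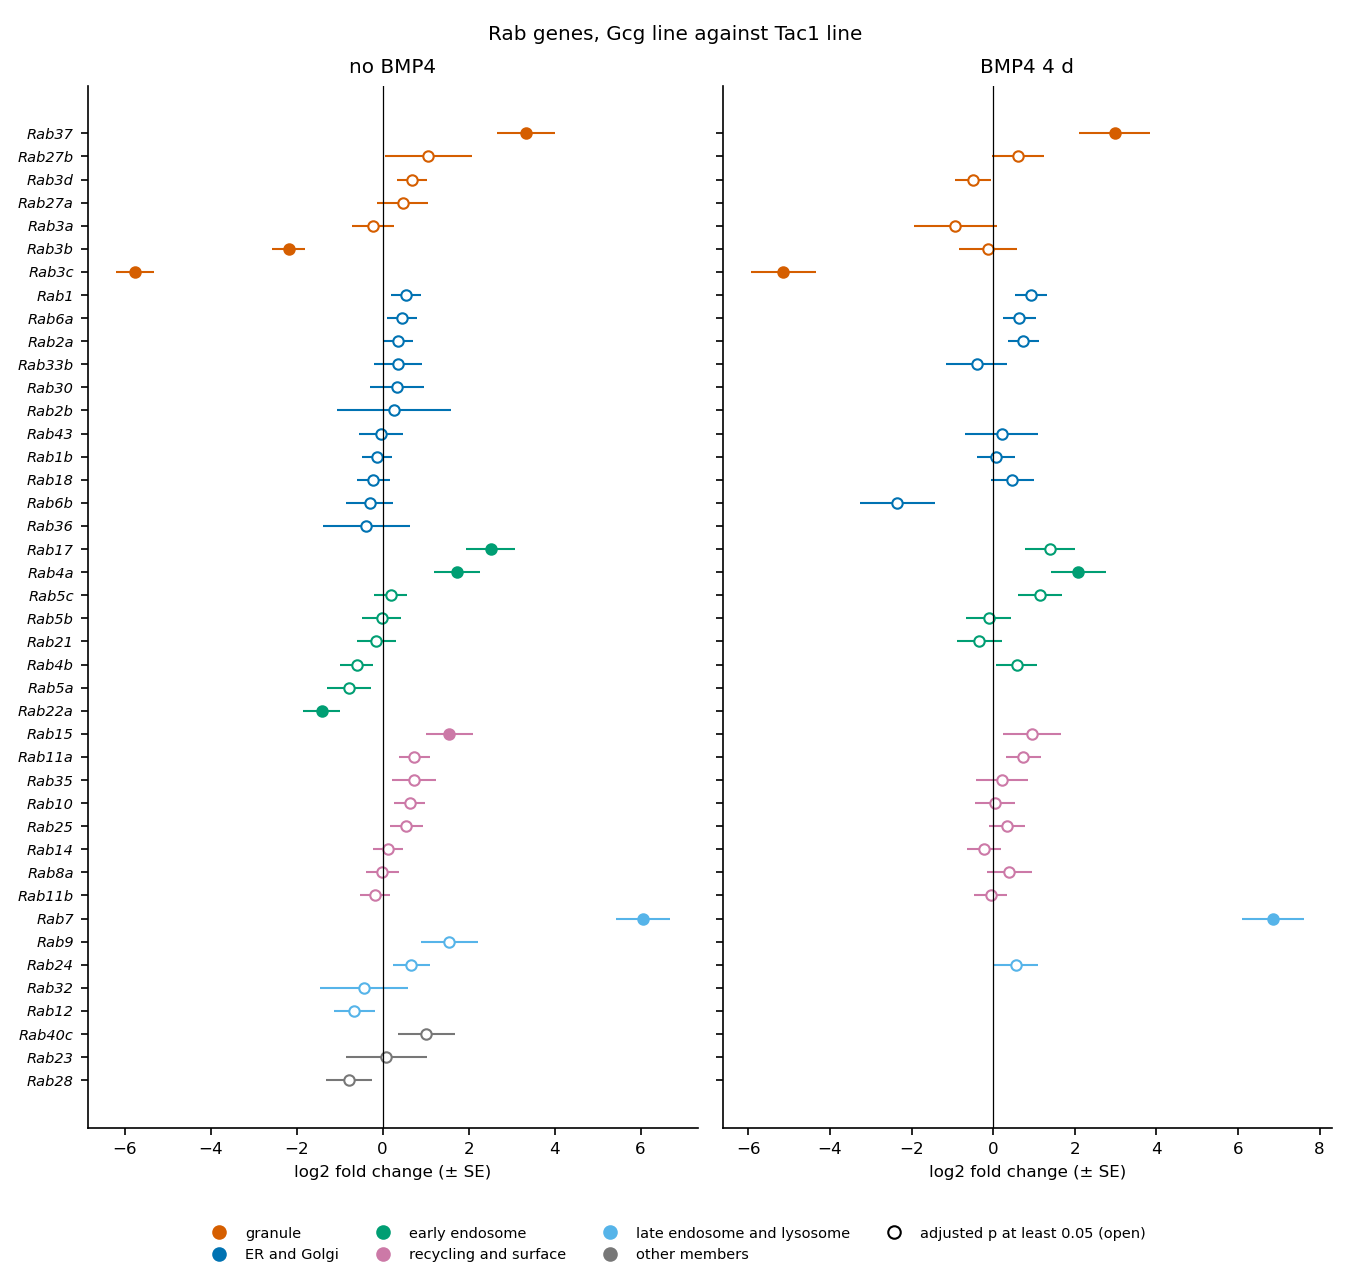
Log2 change of the Rab genes tested in untreated cells, Gcg line against Tac1 line, without BMP4 (left) and after 4 days (right; 30 members tested). Bars are the SE derived from the F statistics of the edgeR fits, which is unreliable for changes near 0. Colours give roles, and filled points passed at an adjusted p under 0.05. Rab3c lies at -5.76 and -5.14, Rab37 at 3.33 and 2.98, and Rab7 at 6.05 and 6.86.

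At 4 days, with 2 Gcg and 4 Tac1 plates, 11.9% of all genes were called (707 of 5926), and of 30 members 3 were higher and 1 lower in the Gcg line. Rab3c was 5.59 and 0 CPM on the Gcg plates, against 236, 238, 153 and 74 CPM on the Tac1 plates (log2 change -5.14 ± 0.80; edgeR adjusted p = 3.2e-04), and without Gcg plate 1, which leaves a Gcg sum of 0, the fitted -8.53 gives no size. Rab37 was 48.7 and 92.9 CPM on the Gcg plates, against 14.8, 0, 10.2 and 6.73 CPM on the Tac1 plates (2.98 ± 0.87; adjusted p = 0.032), with 77 and 5 transcripts and a pooled ratio of 6.00 (exact 95% interval 2.46 to 19). Rab4a was 83.9 and 69.7 CPM on the Gcg plates, against 29.5, 9.51, 10.2 and 20.2 CPM on the Tac1 plates (2.08 ± 0.67; adjusted p = 0.049). Groups did not overlap for any of the 3, but the same test had picked these genes, so this adds no support. Rab7 stood at 217 and 267 CPM on the Gcg plates, and 1 transcript was counted over the 4 Tac1 plates. The calls of Rab37 and Rab4a ended in 5 of 15 and 12 of 17 alternatives, among them the fit without Gcg plate 1 (adjusted p = 0.24 and 0.59). That of Rab37 also ended without Tac1 plate 1 (0.060) or Tac1 4 d plate 2 (0.052), and that of Rab4a without any 1 of the 7 plates in the fit (0.065 to 0.59). Rab17 (1.40 ± 0.61) and Rab6b (-2.35 ± 0.92) did not pass, with adjusted p of 0.16 and 0.11. The 4 day and untreated comparisons share plates.

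The leading hormone of the cells shows how the granule members varied within a line. On Gcg plate 1 Rab3b stood at 175 CPM in Nts-led cells (63 cells), 117 CPM in Cck-led cells (10 cells) and 14 CPM in Gcg-led cells (23 cells). On Gcg plate 2 the same order held, with 179 CPM in Nts-led (31 cells), 50 CPM in Cck-led (15 cells) and 4 CPM in Gcg-led cells (52 cells). Rab3b was thus higher in the Nts-led than in the Gcg-led cells on both plates. The Gcg-led cells had 0 cells at 4 days on both plates, and Nts-led cells numbered 41 and 14 at 4 days and 6 and 6 without BMP4, so class and condition move together. At 24 h, where both classes had at least 10 cells on Gcg plate 2, Rab3b was 220 CPM in Nts-led cells (11 cells) and 0 CPM in Gcg-led cells (14 cells).

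Rab37 and Rab3d did not follow that split. Rab37 stood at 106 and 114 CPM in Nts-led and at 128 and 140 CPM in Gcg-led cells of the 2 Gcg plates, and Rab3d at 261 and 286 CPM in Nts-led and 236 and 314 CPM in Gcg-led cells. Rab3c differed between lines among cells led by the same hormone. At 24 h the Sst-led cells held 776 CPM on Tac1 plate 1 (18 cells) and 639 CPM on the Tac1 24 h plate (30 cells), against 12 CPM on the Gip plate (15 cells). Sst was the one hormone that led at least 10 cells on a Tac1 plate, so hormones could not be compared within that line. Each value is of 1 plate and has no replicate check within its class.

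Of the regulators and effectors of Rab proteins, a list of 74 genes, 48 were tested with BMP4. At 4 days 1 rose and 0 fell, a share below the 3.33% of all genes. Optn, which encodes optineurin, an adaptor that binds Rab8, stood at 101, 75.5, 19.4, 88.6 and 124 CPM at 4 days on Gcg plates 1 and 2, the Gip plate and Tac1 plates 1 and 2, against 37.5, 47.6, 16.5, 10.8 and 9.59 CPM without BMP4. Each of the 5 plates had more at 4 days, and the log2 change was 1.63 ± 0.38 (edgeR adjusted p = 0.027). The call ended without Tac1 plate 1 (0.15), Tac1 plate 2 (0.068) or Gcg plate 1 (0.060). On the other Tac1 plates Optn was 31.1 CPM at 24 h, and 61.1 and 80.8 CPM at 4 days. Within the Tac1 line Optn rose by 3.41 ± 0.62 (edgeR adjusted p = 0.029). That size rests on few transcripts: 18 and 13 at 4 days on Tac1 plates 1 and 2, against 5 and 1 without BMP4. The next by p at 4 days were Rin2, an exchange factor of Rab5 (0.89 ± 0.33), Rab11fip1, a Rab11 effector (0.70 ± 0.26), and Dennd5b (0.78 ± 0.31), with adjusted p of 0.19 to 0.23. The partner Rab8a itself, a Rab of transport to the cell surface, was 141, 58.1, 50.3, 123 and 38.1 CPM at 4 days, against 101, 81.8, 69.7, 102 and 67.2 CPM on the same plates without BMP4, and the plates did not share a direction.

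At 24 h none of the 48 passed, with 1 at an unadjusted p under 0.05 in edgeR and 0 called by DESeq2. That gene was Sytl2, a synaptotagmin-like effector of Rab27, at -1.60 ± 0.58, followed by Rilpl2, Golga2 and Dennd4a. Between 4 days and 24 h Sytl2 was at 2.74 ± 0.57 (adjusted p = 0.054), with 82.3 and 52.3 CPM at 4 days on the Gcg plates, against 3.91 and 13 CPM at 24 h. Without BMP4 these plates had 41 and 20.8 CPM of Sytl2, between the treated values. Its change at 4 days against none was 1.14 ± 0.47 (edgeR adjusted p = 0.255). DESeq2 called 1 of the list there. In the untreated lines 6 of 53 were higher and 2 lower in the Gcg line, a share near the 16.4% of all genes. Those higher were Sytl1, another Rab27 effector (4.54), Sytl2 (3.07), Mlph, an effector of Rab27a (2.60), Optn (1.94), Bicd1, an adaptor of Rab6 (1.50), and Gdi2, the dissociation inhibitor (1.16). The first 4 had few transcripts on untreated Tac1 plates 1 and 2: 1 and 0 for Sytl1, 2 and 0 for Sytl2, 4 and 0 for Mlph, and 5 and 1 for Optn. Their log2 values therefore give no firm size. Those lower were Rabggta, a subunit of the enzyme that attaches lipid to Rabs (-1.91), and Mon1a, part of the exchange factor of Rab7 (-1.44). DESeq2 called 1 of the 53, and at 4 days Bicd1 alone passed of 30 (2.23 ± 0.69; edgeR adjusted p = 0.042).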

How the data were processed

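Single cells were sorted into 384-well plates and sequenced at 75 bases paired-end by SORT-seq, per the labels' protocols, and the submitters' processing notes name BWA 0.6.2-r126 and the build mm10. How reads were counted per gene, with which annotation and strand setting, is not stated in the sources at hand. The deposited values are expected counts, estimated transcript numbers for a gene in a well, after the authors allowed for saturation of the molecular identifiers. Undoing that step at 4096 identifiers returned whole numbers (within 0.01) for 100.0% of values. The labels' protocol gives a 4 base identifier, which allows fewer, so the identifier in use is not settled by the labels. Tac1 files have 2 decimals and list mitochondrial genes, while Gcg and Gip files have full precision and list none, so the 16115 genes listed in both kinds were used. The well list matched the labels in 384 of 384 wells, and plates use the same well barcodes by design. Each well received 1 sorted cell, and no doublet caller was run.

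Cells of at least 2000 transcripts were summed per plate and condition, and sums (58684 to 1251615 transcripts over all 18, of at least 10 cells in tests) were rounded to whole counts. With edgeR 4.0.16 in R 4.3.3, low counts were removed (filterByExpr), TMM factors computed and quasi-likelihood F tests run, and Benjamini-Hochberg adjustment covered all genes tested (called under 0.05). Fits with BMP4 had plate as a block, and line fits had none, since a plate holds 1 line. An SE was derived as the absolute log2 change divided by the square root of F, and it is unreliable for changes near 0. DESeq2 1.42.0 was an alternative. Code was tested on simulated data. Plates pair the conditions by design, and sums of one plate deviated together (r = 0.365 to 0.731 in 13 pairs).

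Named genes are members that passed in any comparison, the 5 of smallest p in each, and the 8 granule Rabs, and of the regulators those that passed and up to 4 of smallest p per comparison. Members, role lists, the regulator list, markers and tests were chosen with earlier results of these data known. Positions and promoters are from RefSeq, whose table matched 59 of 59 members by symbol or synonym.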

Additional observations from a re-analysis of the deposited data

Results flagged for a closer look

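Of 35 groups of 4 or 5 plates checked for a value far from the others, 3 held one, and chance alone flags about 5% of such groups. The log2 change of Rab21, an endosomal Rab, at 24 h was 0.5 on Tac1 plate 1 and 0.06 to 0.13 on the other 3 plates. Its change at 4 days was -0.25 on Gcg plate 2, which had 8 transcripts there, and 0.19 to 0.26 on the other 4 plates. Rab6b at 4 days was 10.2 CPM on Tac1 4 d plate 1 and 59.1 to 80.8 CPM on the other 3 Tac1 plates. The sum of Tac1 4 d plate 1 held 98148 transcripts, so its value rests on very few counts of the gene. These plate changes use a pseudocount of 0.5 transcripts, and groups with few transcripts were left out by limits set after the data were seen.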

How the results depend on the processing

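The count of Rab genes at 24 h was 0 in 16 of 16 alternatives. At 4 days against none it was 1, and 2 with DESeq2, without the filter on low counts or with cells from 1000 transcripts (Rab3c and Rab27b), and 0 with cells from 4000 transcripts (where Rab3c failed the filter), without cells of at least 2% Kcnq1ot1, or without the plate block. Without the replicate block Rab3c was at -1.66 (adjusted p = 0.96). The regulator count of 1 was 0 with cells from 4000 transcripts, without Kcnq1ot1-rich cells and without the block. Leaving out 1 plate gave 0 to 1 for both. Without the filter the count was 1 for 4 days against 24 h, for the Gcg line and for the difference between lines, and 2 for the Tac1 line. It was 1 for 4 days against 24 h with the added Tac1 plates. For the Tac1 line it was 1 with DESeq2 and without the block, 2 without cells with other epithelial markers, and 0 to 2 without 1 plate. Without 1 plate the difference between lines gave 0 to 1. For the untreated lines the count of 8 was 5 with DESeq2 and 5 to 9 without 1 plate. At 4 days the line count of 4 was 0 with cells from 4000 transcripts, which leaves 4 of 7 sums, 2 without Kcnq1ot1-rich cells and 2 to 4 without 1 plate. Only some named values were followed through the alternatives, among them each call of a member and Optn at 4 days. None of these reversed its sign. The 24 h values and the regulators other than Optn were not followed. Rab3c at 4 days was -1.68 to -1.29 and passed in 12 of 15 alternatives. Rab3c and Rab7 between untreated lines passed in 15 of 15 each. The causes of these shifts were not tested. Sums of 16 cells limit genes below about 100 CPM, which had about 10 transcripts there.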
